A study of Mus musculus with 4 samples.

Results

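Phosphodiesterases, RGS proteins and A-kinase anchoring proteins (AKAPs) were examined in mouse heart muscle cells after pressure overload. Members were every gene of the deposited files whose symbol begins with Pde, Rgs or Akap followed by a digit, apart from Rgs5, a known pericyte gene that the rule leaves out. The rule used no measured value and gave 63 of 22322 genes, of which 26 had a Pde symbol, 22 an Rgs symbol and 15 an Akap symbol. Enough counts for a test were found for 43 of them, namely 21 Pde, 10 Rgs and 12 Akap genes.

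RNA was sequenced from cardiomyocytes of 2 sham-operated hearts and of 2 hearts with transverse aortic constriction (TAC), a surgical narrowing of the aorta that loads the left ventricle. All mice were male and were operated on at 2 months of age, no transgene or agent other than the anaesthetics at surgery was given in the methods, and the sources used here do not give the strain. The methods place heart function tests at 14 weeks after surgery, and they also call the mice 14-week-old at cell isolation. Cells were released by Langendorff perfusion, in which enzyme solution is pumped through the coronary vessels, and each RNA sample took part of the myocytes of 1 heart. Replicates were separate hearts, but 2 against 2 libraries allow no exact permutation p below 0.333 for one gene, and each adjusted p therefore rests on a spread that edgeR pooled over genes.

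These families act on the signal that beta-adrenergic stimulation raises in the heart. Phosphodiesterases break down cAMP and cGMP, so they set how long and how far the signal of adenylyl cyclase or guanylyl cyclase reaches. RGS proteins speed the switching off of G protein alpha subunits and thus shorten signalling by G protein-coupled receptors. AKAPs hold protein kinase A (PKA), often together with phosphatases and phosphodiesterases, at defined places such as the calcium channels, the nuclear envelope and the mitochondria.

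The libraries held 24237777 to 32118323 counts. Mitochondrial genes took 47.42% of the counts in TAC 1 and 39.84% to 40.85% in the other libraries, so TAC 1 stood apart. The 12 cardiomyocyte markers summed to 75180 and 83800 CPM in sham and to 81630 and 78570 CPM in TAC, where CPM are counts scaled to a common library size with trimmed mean of M values (TMM) factors. Markers of other cells were detected in every library. The 15 endothelial markers summed to 933 and 778 CPM in sham 1 and 2 and to 443 and 616 CPM in TAC 1 and 2, and all 15 had a fold change below 0, with 4 called. The 15 fibroblast markers summed to 617 and 429 CPM in sham and to 252 and 339 CPM in TAC, again with all 15 below 0 and 5 called. The 15 macrophage and leukocyte markers summed to 152 and 77.9 CPM in sham and to 42.3 and 77.8 CPM in TAC, with 15 below 0 and none called by edgeR (8 at an unadjusted p under 0.05, 1 by DESeq2). None of the markers in these 4 lists was at 0 in any library. Of the 12 markers of mural cells (pericytes and smooth muscle), Des is also abundant in cardiomyocytes and was set apart after its values were seen. The other 11 summed to 567 and 613 CPM in sham and to 351 and 440.3 CPM in TAC, all 11 with a fold change below 0 and 2 called. Most of that sum was Abcc9, a potassium channel subunit that cardiomyocytes also use, at 379.8 and 406.1 CPM in sham and at 279.0 and 302.6 CPM in TAC. In such bulk samples, fewer cells of a type and less RNA per cell cannot be told apart.

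Of the 43 tested members, 6 were called between TAC and sham at an edgeR adjusted p under 0.05, which is 14%, beside 5.01% of all 12499 genes tested. Higher in TAC were 2 members, Pde8a and Pde7a (all genes: 2.58%), and lower were 4, Pde4a, Pde4d, Akap13 and Akap5 (all genes: 2.43%). When libraries were scaled by total counts in place of TMM, 1 member was higher and 5 were lower, with 4.25% of all genes called. That scaling moved the median of all genes from −0.01 to −0.20 on the log2 scale. DESeq2 called 7 of the 34 members for which it gave an adjusted p, beside 8.02% of all genes. On log2-transformed FPKM, limma called 0 members (17 at an unadjusted p under 0.05), beside 1.56% of all genes. With the replicate numbers as a block, edgeR called 4 members, without Pde4a and Akap5, beside 4.53% of all genes.

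More members lay below 0 than above. The log2 fold change was negative for 33 of the 43 tested members with TMM, beside 6359 of all 12499 genes, and for 37 with total-count scaling, beside 9605 of all genes. Its median over members was −0.24 with TMM, against −0.01 for all genes, and −0.42 with total-count scaling, against −0.20. At an unadjusted p under 0.05 there were 16 members (37.2%), of which 3 were higher and 13 lower, and the share of all genes was 27.5%, with 1684 higher and 1754 lower. At an edgeR adjusted p under 0.1 there were 12 members (27.9%), against 14.5% of all genes. The 2 TAC libraries lay on one side of the 2 sham libraries for 27 members (62.8%), 6 above and 21 below, which is near the 60.1% of all genes, where 3722 lay above and 3793 below.

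**Figure D1:**
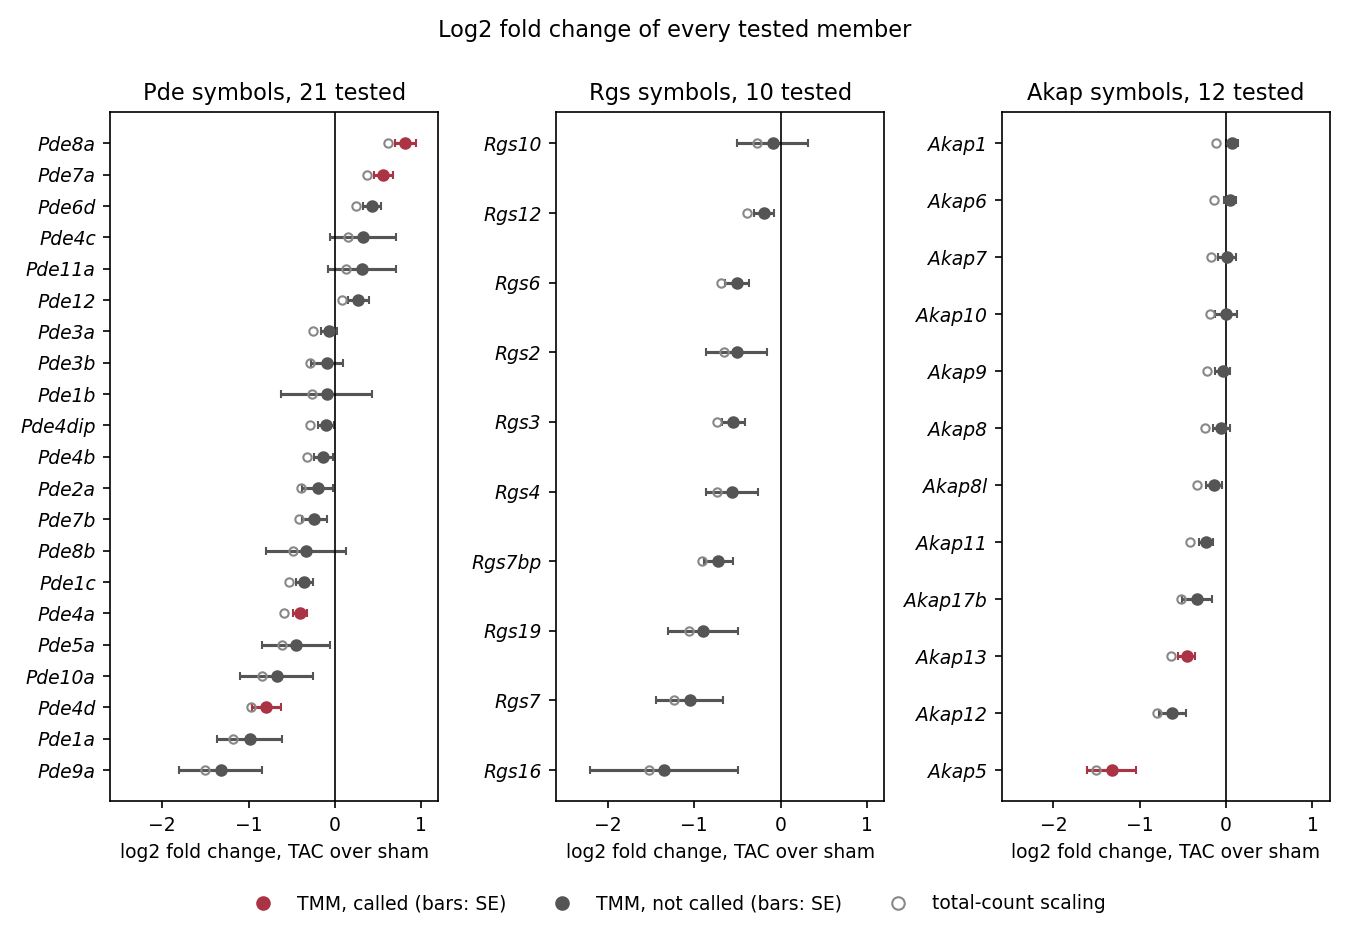
Log2 fold change of TAC over sham for the 43 tested members by symbol family. Filled points with bars are the TMM-scaled edgeR estimate ± SE, red where called, and open points are the estimate with total-count scaling, which lies to the left of the filled point for every member. All 10 Rgs points lie below 0, and Pde8a and Pde7a are the red points above 0.

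Because cAMP can feed back on its own breakdown through the transcription factor CREB, promoters were searched for the cAMP response element TGACGTCA and for its half-site TGACG on both strands, the half-site being contained in the full element. RefSeq promoter windows of 250 bases before to 50 bases after a gene start were given for 48 members (81 windows, build GRCm38.p6). The full element was in none of the 81 member windows and in 1.79% of all 32851 windows. The half-site was in 18.5% of member windows and in 20.8% of all windows. By gene, 15 of 48 members (31.2%) and 23.0% of all genes had at least 1 window with it. Members had more windows per gene (81 for 48 genes) than all genes (32851 for 27025), so the shares by gene are not like for like. Of the called members Pde8a, Pde4a, Pde4d, Akap13 and Akap5 had windows in the table, and Pde7a did not. Pde8a and Pde4a had a match, and these 2 stretches are shown because they belong to a member that rose and a member that fell. Capitals mark the half-site as read on the gene's strand, where CGTCA is TGACG on the other strand.
Pde8a: tgctttgcatTGACGccagcagccg
Pde4a: cacagctcgaCGTCAggctggggag
The Pde8a stretch is chr7:81213171-81213195 on the plus strand, with its half-site 84 bases before a RefSeq start. That start lies upstream of the gene start at 81213596 that is used below. The Pde4a stretch is chr9:21184041-21184065 on the plus strand, 50 bases before a start that lies inside the span of the gene. The letters are a description only, as no binding was measured here.

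Among the cAMP-specific phosphodiesterases, those that break down cAMP and not cGMP, 4 of 8 were called, 2 in each direction, beside 5.01% of all genes (2.58% higher and 2.43% lower). Pde8a rose. This enzyme has a very high affinity for cAMP, and its gene lies at chr7:81213596-81334533 (mm10). It stood at 15.5 and 16.2 CPM in sham 1 and 2 and at 30.7 and 25.2 CPM in TAC 1 and 2. The groups did not overlap, and the gap between them was wider than the spread within either. The rise was 1.76-fold, or on the log2 scale 0.82 ± 0.12 (SE, edgeR adjusted p = 0.0158). Without TAC 1 it was 0.67, and Pde8a was the one member still called (edgeR adjusted p = 0.0365). Pde8b, its close relative, was counted at only 18 to 44 reads per library, and its log2 fold change was −0.33 (edgeR adjusted p = 0.676).

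Pde7a rose as well. It encodes a cAMP-specific enzyme known from T cells and striated muscle and lies at chr3:19223108-19311322. Its level was 32.4 and 35.1 CPM in sham and 54.1 and 45.5 CPM in TAC. Both TAC libraries were above both sham libraries, and TAC 1 was the higher of them. On the log2 scale this was a difference of 0.56 ± 0.11 (edgeR adjusted p = 0.0313), a 1.48-fold rise. It was 0.37 when scaled by total counts (edgeR adjusted p = 0.105) and 0.43 without TAC 1 (edgeR adjusted p = 0.0786), so the call was lost in both. On the deposited FPKM scale (fragments scaled by gene length and library size) Pde7a stood at 9.91 and 10.4 in sham and at 14.9 and 10.9 in TAC, a smaller gap. The gene length implied by its count and FPKM was 3147 bases in TAC 1 and 4201 bases in TAC 2, so the FPKM of the TAC libraries rested on different lengths. Pde7b, the other gene of this subfamily, was at 16.2 and 21.5 CPM in sham and at 15.9 and 16.1 CPM in TAC, with an estimate on the log2 scale of −0.24 (edgeR adjusted p = 0.333). That estimate was −0.01 without sham 2 (edgeR adjusted p = 0.979) and −0.43 without sham 1 (edgeR adjusted p = 0.128).

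Pde4a and Pde4d, from the subfamily that does much of the cAMP breakdown in the rodent heart, both fell. Pde4a (chr9:21165714-21213248) was at 65.1 and 68.3 CPM in sham and at 51.7 and 49.1 CPM in TAC. The 4 libraries formed separate pairs with little spread within each. Its log2 fold change was −0.40 ± 0.08 (edgeR adjusted p = 0.0338), and its mean fell by 24.4%. The Pde4a estimate kept to between −0.44 and −0.36 with any library left out, but the edgeR adjusted p was 0.0853 without sham 2, 0.0653 without TAC 1 and 0.0507 without TAC 2. Pde4d (chr13:108449948-109953461), whose product is known to associate with ryanodine receptors and beta-adrenergic receptors, was at 12.7 and 14.5 CPM in sham and at 6.63 and 9.08 CPM in TAC. Its groups did not overlap, and TAC 1 was the lowest library. On the log2 scale the fall was to −0.79 ± 0.17 (edgeR adjusted p = 0.047), a fall by 42.3%, and it was −0.69 without sham 2 (edgeR adjusted p = 0.0793) and −0.58 without TAC 1 (edgeR adjusted p = 0.128). Pde4b, which has been tied to the calcium channel complex in heart, was at 19.5 and 17.6 CPM in sham and at 16.6 and 17.2 CPM in TAC, with an estimate on the log2 scale of −0.13 (edgeR adjusted p = 0.446). Pde4c was counted at 28 to 46 reads, its groups overlapped, and its estimate of 0.33 (edgeR adjusted p = 0.617) turned to −0.06 without TAC 2.

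**Figure D2:**
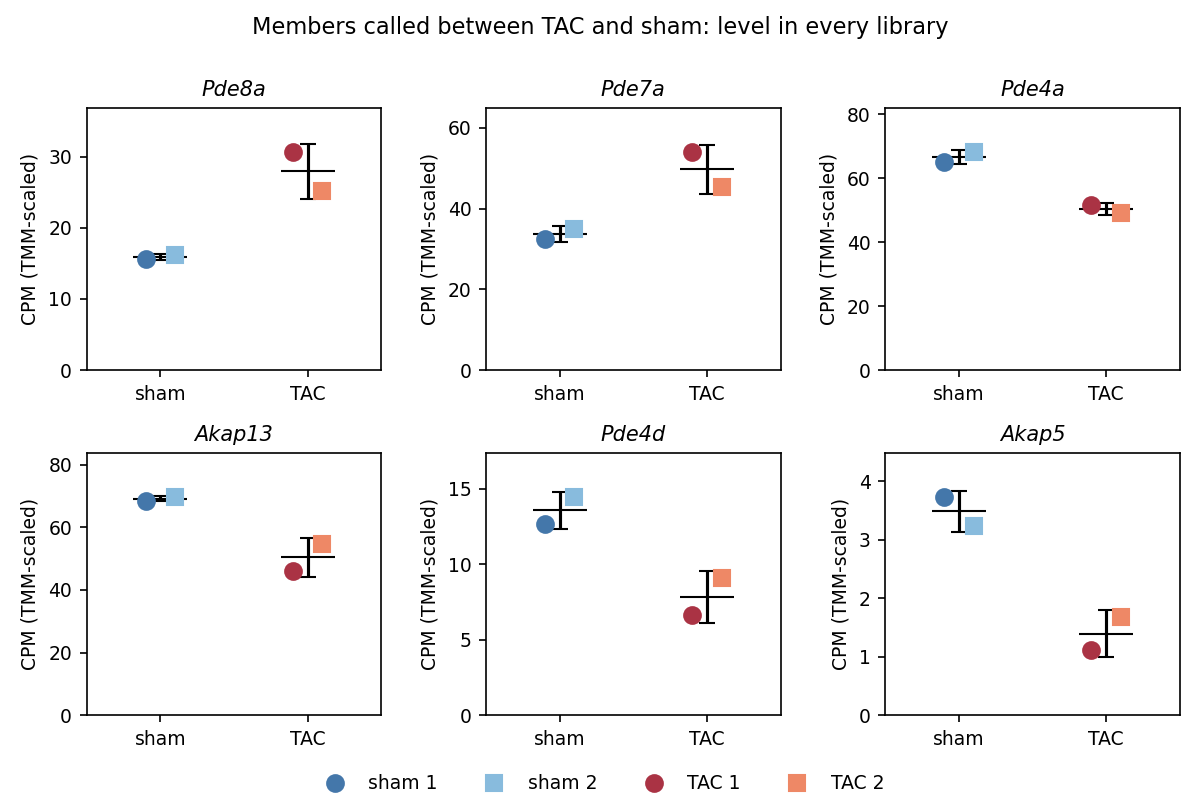
Level of the 6 called members in each library, in TMM-scaled CPM on axes that start at 0. Points are libraries, and the black line and bars are the mean ± SD of 2 libraries. In every panel the 2 TAC points lie on one side of the 2 sham points, and TAC 1 lies farther from sham than TAC 2 in all panels but that of Pde4a.

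Summed over the 8 cAMP-specific phosphodiesterases, the TMM-scaled level was 163.7 and 175.6 CPM in sham and 177.3 and 165.4 CPM in TAC, with overlapping groups. That overlap depends on the scaling. Deposited FPKM carry scaling by total counts, and on that scale the sum was lower in both TAC libraries. There, 21 catalytic phosphodiesterase genes summed to 76.7 and 81.3 FPKM in sham and to 65.4 and 67.7 FPKM in TAC. The make-up of these transcripts differed. Per length, on the deposited FPKM scale, the Pde4 genes held 35.6% and 32.8% of the summed FPKM of 21 catalytic phosphodiesterase genes in sham 1 and 2 and 25.6% and 29.3% in TAC 1 and 2. The Pde7 and Pde8 genes together held 25.1% and 26.1% in sham and 39.2% and 32.8% in TAC. In both sham libraries the Pde4 share was the larger of the 2, and in both TAC libraries it was the smaller. This sets the subfamilies of the called members that rose against that of the called members that fell. Taken alone, the Pde7 genes held 28.1% in TAC 1 and 22.3% in TAC 2, above Pde4 in TAC 1 and below it in TAC 2. The Pde8 genes stayed below Pde4 in every library. Pde4a alone had the largest share of any gene in sham (21.98% and 20.99%), while in TAC 1 Pde7a held 22.8% against 16.2% for Pde4a and in TAC 2 it held 16.1% against 17.0%. The Pde7a shares carry the differing implied lengths given above, 3147 bases in TAC 1 and 4201 bases in TAC 2, so no order of these neighbours is given in TAC. The Pde8a share was 5.85% and 5.45% in sham and 10.7% and 9.90% in TAC. These shares are descriptions with no test.

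**Figure D3:**
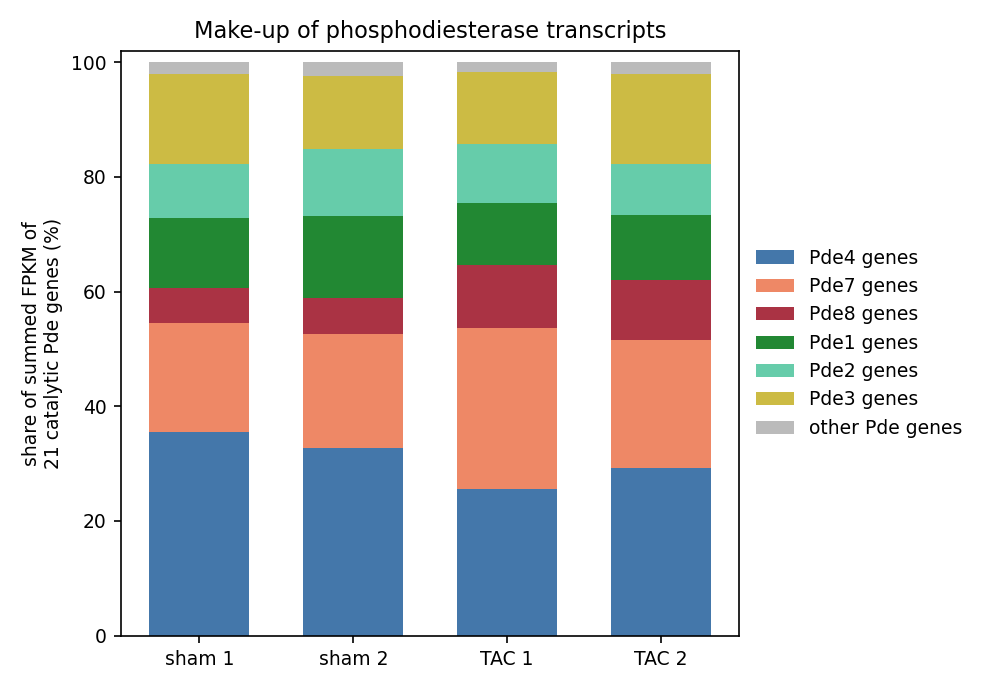
Share of each phosphodiesterase subfamily in the summed deposited FPKM of 21 catalytic Pde genes, per library, stacked to 100%. Pde4 genes make up 35.6% and 32.8% in sham and 25.6% and 29.3% in TAC, and the Pde8 block is 6.204% and 6.272% in sham and 11.1% and 10.5% in TAC.

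Count ratios between 2 genes of one library do not depend on how libraries are scaled. The ratio of Pde8a to Pde4a counts was 0.239 and 0.237 in sham and 0.594 and 0.514 in TAC. For Pde7a to Pde4a it was 0.498 and 0.514 in sham and 1.047 and 0.926 in TAC. Both ratios were nearly equal in the sham libraries and higher in each TAC library. The ratio of Pde8a to Pde4d counts was 1.22 and 1.12 in sham and 4.62 and 2.78 in TAC. Each pair sets a called member that rose over a called member that fell. The direction of these ratios thus follows from the calls and is no separate support.

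None of the 8 dual-specificity phosphodiesterases, which break down cAMP and cGMP, was called by edgeR with TMM and the low-count filter. At an unadjusted p under 0.05 there were 2, beside 27.5% of all genes, and DESeq2 called none of the 5 with an adjusted p. Pde1c, a calcium- and calmodulin-activated enzyme, came nearest. It was called lower with totals without mitochondrial genes (−0.45, edgeR adjusted p = 0.043) and without the low-count filter (−0.35, edgeR adjusted p = 0.032). It was at 49.9 and 59.4 CPM in sham and at 42.3 and 43.4 CPM in TAC, without overlap, and its log2 fold change was −0.35 ± 0.10 (edgeR adjusted p = 0.0835). It was −0.22 without sham 2 (edgeR adjusted p = 0.321) and was called without sham 1, at −0.47 (edgeR adjusted p = 0.0291). Pde3a, the main cGMP-inhibited form of heart muscle and the target of milrinone, was at 126.8 and 113.3 CPM in sham and at 106.9 and 121.6 CPM in TAC. Its groups overlapped, and its log2 fold change was −0.07 ± 0.09 (edgeR adjusted p = 0.653). Pde3b stood at 4.58 and 5.21 CPM in sham and at 4.99 and 4.21 CPM in TAC, also with overlap. Pde2a, which cGMP stimulates, was at 27.1 and 37.6 CPM in sham and at 31.9 and 24.4 CPM in TAC. The widest spread here was within groups, and the Pde2a estimate on the log2 scale of −0.20 (edgeR adjusted p = 0.495) became 0.06 without sham 2. Pde2a was also the one member with counts that were not whole, so part of its reads were divided among features. Pde10a (16 to 42 reads) and Pde1a (16 to 43 reads) were below sham in both TAC libraries but were not called, with log2 fold changes of −0.67 and −0.99 (edgeR adjusted p = 0.338 and 0.148). Pde10a was at 1.01 and 1.46 CPM in sham and at 0.574 and 0.982 CPM in TAC. Pde11a (35 to 69 reads) and Pde1b (9 to 18 reads) overlapped between groups.

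The cGMP-specific enzymes were rare in these cells. Pde5a, the target of sildenafil, had 66 and 48 reads in sham and 25 and 46 reads in TAC, or 2.09, 1.67, 0.897 and 1.88 CPM in the same order. TAC 2 lay between the sham libraries, and the log2 estimate was −0.45 ± 0.40 (edgeR adjusted p = 0.49). Pde9a had 31 and 22 reads in sham and 7 and 11 in TAC, or 0.9797, 0.7646, 0.251 and 0.450 CPM. Both TAC libraries were lower, but the estimate of −1.32 ± 0.48 was not called (edgeR adjusted p = 0.135). Pde6d encodes a carrier of prenylated proteins first found as a subunit of the photoreceptor enzyme. It was at 13.2 and 13.8 CPM in sham and at 18.2 and 18.3 CPM in TAC, tight within and apart between groups, with an estimate on the log2 scale of 0.43 ± 0.10 (edgeR adjusted p = 0.0565). Scaled by total counts, the Pde6d estimate was 0.24 (edgeR adjusted p = 0.364). The photoreceptor subunits themselves, Pde6a, Pde6b, Pde6c, Pde6g and Pde6h, reached at most 4 reads in a library and were not tested. A count of 0 allows up to 3 reads, or 0.0948 to 0.123 CPM by library, which covers counting error only.

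The most abundant Pde symbol did not belong to an enzyme of cyclic nucleotides. Pde4dip encodes myomegalin, a scaffold that binds Pde4d and sits at the Golgi and the sarcomere. It stood at 271 and 300 FPKM in sham and at 212 and 218 FPKM in TAC, while the 21 catalytic genes together summed to 76.7 and 81.3 FPKM in sham and to 65.4 and 67.7 FPKM in TAC. On the CPM scale Pde4dip was at 1392 and 1563 in sham and at 1416 and 1343 in TAC, with overlap and an estimate on the log2 scale of −0.10 (edgeR adjusted p = 0.514). Its implied length ran from 5407 bases in sham 2 to 6223 bases in TAC 2, and FPKM also carry the scaling by total counts. Pde12, which encodes a nuclease of mitochondrial RNA, was at 11.6 and 10.6 CPM in sham and at 13.4 and 13.5 CPM in TAC, with an estimate of 0.27 on the log2 scale (edgeR adjusted p = 0.186), or 0.0826 by total counts.

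None of the 10 tested RGS genes was called by edgeR, although all 10 had a log2 fold change below 0, with a median of −0.55 (all genes −0.01). At an unadjusted p under 0.05 there were 4 of them (Rgs7bp, Rgs3, Rgs6 and Rgs7), all lower, beside 27.5% of all genes in either direction, and DESeq2 called none of the 6 to which it gave an adjusted p. With total-count scaling the median was −0.73 and Rgs7bp was called. The summed endothelial, fibroblast and mural markers given above (mural without Des) were below sham in both TAC libraries as well. The summed leukocyte markers were near equal in sham 2 and TAC 2, at 77.9 and 77.8 CPM, and differed in sham 1 and TAC 1. The part of these cells in the RGS values was not tested.

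The R7 group acts on inhibitory G proteins of the Gi and Go class together with the beta subunit encoded by Gnb5. Rgs6, which shortens the slowing of the heart by acetylcholine, was at 11.95 and 10.56 CPM in sham and at 7.46 and 8.46 CPM in TAC. Its groups were apart, and its log2 fold change was −0.50 ± 0.14 (edgeR adjusted p = 0.0822). Rgs7bp, the membrane anchor of this group, was at 6.26 and 6.12 CPM in sham and at 3.73 and 3.76 CPM in TAC. Spread within each pair was small, and the estimate was −0.72 ± 0.17 (edgeR adjusted p = 0.0533, or 0.0472 with total-count scaling). Rgs7 had only 14 to 43 reads and an estimate of −1.05 ± 0.39 (edgeR adjusted p = 0.136). Rgs9, Rgs9bp and Rgs11 reached at most 3 reads.

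The R4 group holds small RGS proteins that act on Gq and Gi. Rgs2, which is selective for Gq and limits cardiac hypertrophy in mice, was at 15.04 and 19.11 CPM in sham but at 6.96 CPM in TAC 1 and 17.2 CPM in TAC 2. TAC 2 lay between the sham libraries, so the difference was that of 1 library. The Rgs2 log2 fold change was −0.51 ± 0.35 (edgeR adjusted p = 0.379), 0.01 without TAC 1 and −1.29 without TAC 2 (edgeR adjusted p = 0.00505). Rgs3 was at 17.9 and 14.5 CPM in sham and at 10.7 and 11.5 CPM in TAC, without overlap, with an estimate of −0.54 ± 0.14 (edgeR adjusted p = 0.0642, and 0.0278 without sham 2). Without sham 1 the Rgs3 estimate was −0.38 (edgeR adjusted p = 0.263), and without TAC 1 it was −0.50 (edgeR adjusted p = 0.196). Rgs4, an inhibitor of Gq and Gi signalling in the sinus node and in loaded myocardium, was at 5.37 and 4.48 CPM in sham and at 2.30 and 4.42 CPM in TAC. TAC 2 was only just below sham 2, and the Rgs4 estimate of −0.56 ± 0.30 (edgeR adjusted p = 0.269) was −0.16 without TAC 1 and −1.10 without TAC 2 (edgeR adjusted p = 0.036). Rgs16 had 38 reads in sham 1 and 8, 3 and 12 reads in the other libraries, or 1.201 CPM against 0.278, 0.108 and 0.491 CPM. Its estimate of −1.35 ± 0.86 (edgeR adjusted p = 0.342) rested on sham 1 and was 0.07 without that library. Rgs1, a gene of lymphocytes and macrophages, had 62 reads in sham 1 and 9, 8 and 6 in the others and was not tested with all 4 libraries. The leukocyte markers were also highest in sham 1, at 152 CPM, and their part in the Rgs16 and Rgs1 reads was not tested. Rgs8, Rgs13 and Rgs21 had no read, and Rgs18 at most 6.

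The remaining RGS genes were closer between groups or rare. Rgs12, a large scaffold of the R12 group, was at 16.7 and 16.9 CPM in sham and at 15.7 and 13.7 CPM in TAC, with an estimate on the log2 scale of −0.19 (edgeR adjusted p = 0.308). Rgs10 (16 to 22 reads) was at 0.695 CPM in each sham library and at 0.574 and 0.736 CPM in TAC, around them. Rgs14 had 2, 5, 4 and 1 reads and was not tested. Rgs19, of the RZ group that acts on Gi and Gz, was at 1.42 and 1.46 CPM in sham and at 0.538 and 1.02 CPM in TAC, an estimate of −0.89 ± 0.40 (edgeR adjusted p = 0.2). The untested Rgs17, Rgs20 and Rgs22 had at most 12 reads.

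Per length, Rgs2 and Rgs3 had the highest mean FPKM of the RGS genes over the 4 libraries. On the FPKM scale Rgs2 stood at 5.92 and 7.77 in sham and at 2.24 and 7.10 in TAC, and Rgs3 at 8.0 and 6.37 in sham and at 4.11 and 4.44 in TAC. These neighbours did not differ beyond their spread, and which came first changed from library to library. Rgs12 and Rgs6 followed by mean, at 3.12 to 4.28 and 1.83 to 3.88 FPKM, but in TAC 1 Rgs12 (3.12 FPKM) lay above Rgs2 (2.24 FPKM).

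**Figure D4:**
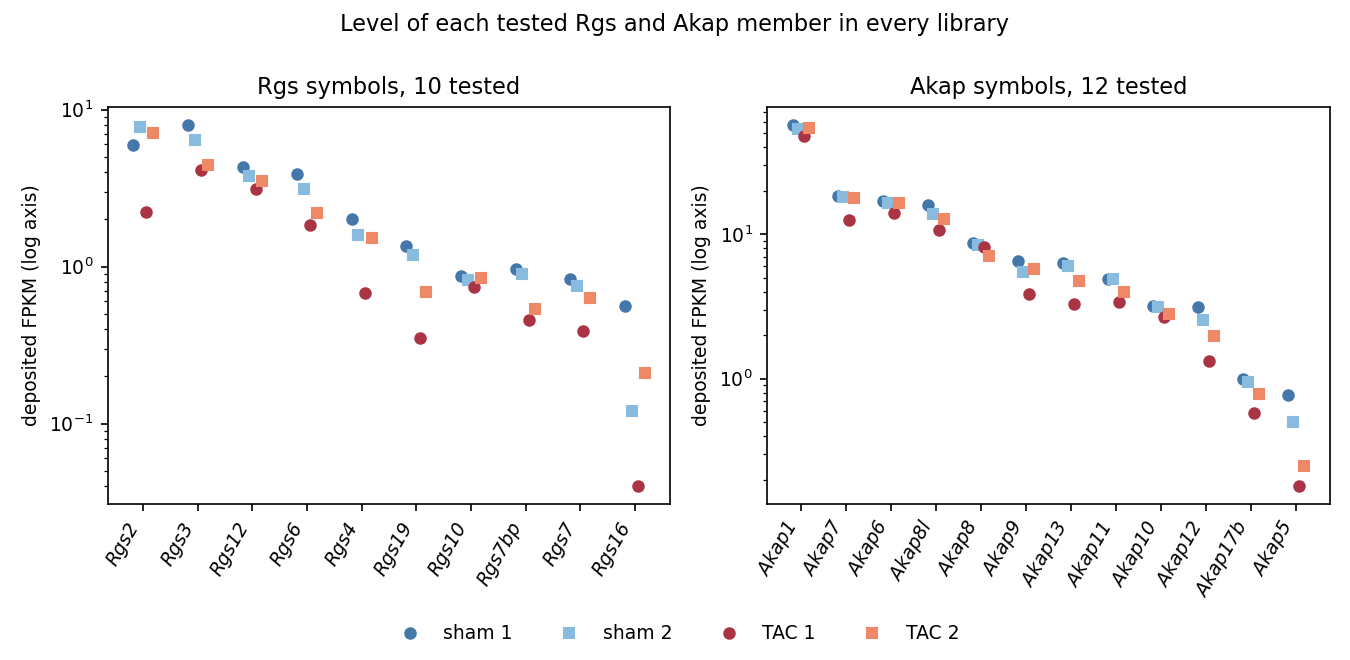
Deposited FPKM of each tested Rgs and Akap member in the 4 libraries, on a log axis and ordered by mean. Rgs2 in TAC 1 (2.24 FPKM) lies apart from the other 3 libraries (5.92 to 7.77 FPKM), and Rgs16 reaches 0.56 FPKM in sham 1 alone, while the points of Akap1 and Akap6 lie close together.

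Of the 12 tested AKAP genes 2 were called, both lower in TAC, beside 5.01% of all genes (2.43% lower). Akap5 (chr12:76324891-76334153) anchors PKA, calcineurin and protein kinase C beside beta-adrenergic receptors and calcium channels at the cell membrane. It was at 3.73 and 3.23 CPM in sham and at 1.11 and 1.68 CPM in TAC, from 118 and 93 reads in sham and 31 and 41 in TAC. The groups were far apart relative to their spread. On the log2 scale this was −1.33 ± 0.29 (edgeR adjusted p = 0.046), a fall by 60.1%, the steepest among the called members, and it was −1.22 without sham 1 (edgeR adjusted p = 0.0988) and −1.05 without TAC 1 (edgeR adjusted p = 0.145). Akap13 (chr7:75455534-75754609) anchors PKA and takes part in hypertrophic signalling. It was at 68.5 and 69.6 CPM in sham and at 46.0 and 54.7 CPM in TAC. The sham libraries were nearly equal and the TAC libraries both lower, on the log2 scale −0.46 ± 0.10 (edgeR adjusted p = 0.0449), a fall by 27.1%. It was −0.44 without sham 2 (edgeR adjusted p = 0.0611) and −0.34 without TAC 1 (edgeR adjusted p = 0.131).

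Akap12 and Akap11 were lower without being called. Akap12, or gravin, which binds beta-adrenergic receptors and is also known from endothelium and fibroblasts, was at 17.0 and 14.8 CPM in sham and at 9.04 and 11.7 CPM in TAC. There was no overlap, and its log2 fold change was −0.62 ± 0.15 (edgeR adjusted p = 0.0619). DESeq2 called Akap12, as did edgeR without sham 2 and without TAC 2, while the estimate was −0.52 without sham 1 (edgeR adjusted p = 0.141) and −0.45 without TAC 1 (edgeR adjusted p = 0.202). The summed markers of endothelial cells, of fibroblasts and, without Des, of mural cells were also below sham in both TAC libraries, and their part in the Akap12 level was not tested. Akap11, which also binds the kinase GSK3, was at 42.0 and 44.4 CPM in sham and at 36.6 CPM in each TAC library, an estimate of −0.24 ± 0.08 (edgeR adjusted p = 0.115), or −0.42 by total counts (edgeR adjusted p = 0.0868). Akap17b was at 5.47 and 5.42 CPM in sham and at 4.02 and 4.62 CPM in TAC (edgeR adjusted p = 0.256).

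The most abundant AKAP genes differed little between groups. Akap1, which docks PKA on the outer mitochondrial membrane, was at 196.2 and 193.8 CPM in sham and at 205.7 and 203.0 CPM in TAC. Its log2 fold change was 0.07 ± 0.07 with TMM (edgeR adjusted p = 0.555) and −0.12 with total-count scaling, so no direction can be given. Akap6, the muscle anchor of the nuclear envelope, was at 228.8 and 233.6 CPM in sham and at 238.0 and 239.6 CPM in TAC, with 0.05 by TMM and −0.14 by total counts. Akap7, which links PKA to calcium channels and phospholamban, was at 16.4 and 16.8 CPM in sham and at 16.2 and 17.2 CPM in TAC, with 0.01 by TMM and −0.18 by total counts. Akap10, known for RGS-like domains beside its PKA anchor, was at 11.1 and 11.7 CPM in sham and at 12.01 and 10.76 CPM in TAC. The groups of Akap7 and Akap10 overlapped. Of the nuclear anchors, Akap8 was at 24.8 and 25.2 CPM in sham and at 25.7 and 22.3 CPM in TAC, and Akap8l at 24.8 and 23.7 CPM in sham and at 21.8 and 22.0 CPM in TAC (edgeR adjusted p = 0.764 and 0.342). Akap9, a large scaffold of the centrosome and Golgi that also joins the KCNQ1 potassium channel, overlapped between groups at 40.9 to 45.2 CPM. The testis genes Akap3, Akap4 and Akap14 had at most 1 read.

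Per length, Akap1 held 40.0% of the summed AKAP FPKM in each sham library and 43.9% and 42.4% in TAC 1 and 2. The shares of Akap13 were 4.38% and 4.52% in sham and 3.05% and 3.70% in TAC, and those of Akap5 were 0.538% and 0.373% in sham and 0.166% and 0.194% in TAC. Akap5 had under 100 reads in sham 2 and in both TAC libraries (93, 31 and 41). The length implied by its FPKM was therefore not compared between libraries, and its shares carry that limit. Against Akap6 as a gene with little difference, the count ratio of Akap13 was 0.299 and 0.298 in sham and 0.193 and 0.228 in TAC. The count ratio of Akap5 to Akap6 was 0.0163 and 0.0138 in sham and 0.00467 and 0.007 in TAC.

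Single libraries set which members were called. With each library left out in turn, 28 of the 43 tested members kept the sign of their fold change in all 4 fits, and the 6 called members were among them. The groups of those 6 did not overlap, so leaving out 1 library could not turn their sign. Their kept sign is no added support. Leaving out sham 1 gave 6 called members, beside 4.55% of all genes, and leaving out sham 2 also gave 6, beside 5.8%. The 6 without sham 2 include Rgs1, which is not among the 43 tested members and passed the count filter there through its 62 reads in sham 1, so nothing is read from its call. Leaving out TAC 1 gave 1, beside 2.34% of all genes, and leaving out TAC 2 gave 8, beside 10.3%. Of the 6 members called with all libraries, 5 were still called when sham 1 was absent, 3 when sham 2 was, 1 when TAC 1 was and 5 when TAC 2 was. TAC 1 was also the library with the highest mitochondrial share, and the part of that share in the calls was not tested. Scaling by totals without mitochondrial genes gave 8 called members, beside 5.1% of all genes.

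**Figure D5:**
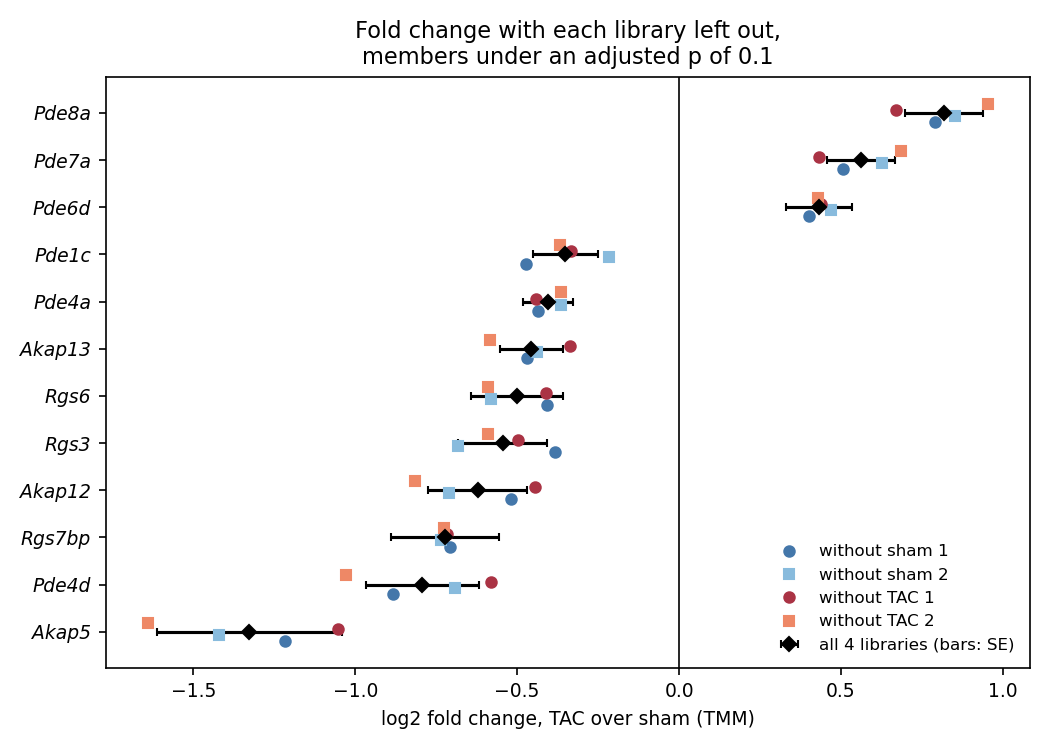
Log2 fold change (TMM, edgeR) of the 12 members with an adjusted p under 0.1. Black diamonds with bars are all 4 libraries ± SE, and coloured points leave out 1 library each. No point crosses 0, as the groups of these members do not overlap. For Pde8a, Pde7a, Akap13, Pde4d, Akap12 and Akap5 the estimate without TAC 1 lies nearest to 0 and that without TAC 2 farthest from it.

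The partners of these families in the cyclic nucleotide and G protein pathway were counted from fixed lists. Of 70 such genes 60 were tested and 4 were called (6.67%, against 5.01% of all genes), all higher in TAC, with a median log2 fold change of −0.06. With total-count scaling 3 partners were called, 2 higher and 1 lower, beside 4.25% of all genes. At an unadjusted p under 0.05 there were 21, of which 9 were higher and 12 lower, and 27.5% of all genes passed that threshold, the background for each such count that follows. For DESeq2 counts the background was 8.02%. None of the 8 tested PKA subunits and inhibitors was called by edgeR (2 at an unadjusted p under 0.05, and 1 by DESeq2). The nearest was Prkar1a, the regulatory subunit bound by Akap1 and Akap10, with 379 and 338.5 CPM in sham, 471.9 and 455.9 CPM in TAC and an estimate on the log2 scale of 0.37 ± 0.08 (edgeR adjusted p = 0.0501), or 0.18 by total counts (edgeR adjusted p = 0.436). None of the 8 tested adenylyl cyclases was called (3 at an unadjusted p under 0.05, and none by DESeq2), and 7 of them were below 0. The 2 main cardiac cyclases overlapped between groups, Adcy5 at 72.9 to 78.7 CPM and Adcy6 at 138.6 to 165.9 CPM.

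Among the other cAMP effectors 2 of 8 were called, beside 5.01% of all genes, both of the Popeye family of cAMP-binding membrane proteins. The third Popeye gene, Popdc2, was at 487.0 and 531.5 CPM in sham and at 474.4 and 483.7 CPM in TAC and was not called (−0.0880, edgeR adjusted p = 0.497). Popdc3 rose from 20.2 CPM in each sham library to 35.3 and 37.5 CPM in TAC, by 0.85 ± 0.09 on the log2 scale (edgeR adjusted p = 0.00532). Bves rose from 70.7 and 69.2 CPM to 87.5 and 90.9 CPM, by 0.35 ± 0.07 (edgeR adjusted p = 0.041), but with total-count scaling it was 0.16 and was not called. Of 10 tested G protein alpha subunits, the substrates of RGS proteins, 1 was called. Gnao1, a substrate of the R7 group, rose from 13.2 and 13.8 CPM in sham to 27.8 and 21.3 CPM in TAC, by 0.86 ± 0.14 (edgeR adjusted p = 0.023). Of 5 beta subunits Gnb3 was called, at 7.96 and 10.4 CPM in sham and 18.6 and 15.1 CPM in TAC (0.88 ± 0.17, edgeR adjusted p = 0.0333, or 0.0513 with total-count scaling). Gnb5 was at 14.2 and 17.1 CPM in sham and at 17.2 and 19.3 CPM in TAC and was not called (edgeR adjusted p = 0.302). None of the 5 tested genes of cGMP synthesis and PKG was called by edgeR with TMM (4 at an unadjusted p under 0.05, 1 by DESeq2), while with total-count scaling Gucy1b1, a subunit of soluble guanylyl cyclase, was called lower (−1.22, edgeR adjusted p = 0.0483). Nor was a call made by edgeR for any of 7 receptor kinases and arrestins (2 at an unadjusted p under 0.05, none by DESeq2) or of 9 anchors of PKA without an Akap symbol (3 at an unadjusted p under 0.05, none by DESeq2).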

How the data were processed

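Cardiomyocyte RNA from 2 sham and 2 TAC mice was compared, with groups and replicate numbers read from the titles. The deposited files give, per gene and library, an expected count (an estimated count) and an FPKM value made by the authors. The submitters' processing notes name Bowtie2 2.2.8, StringTie 1.3.1 and mm10; their roles, the counting program, strand use and the FPKM length (not given in the sources used here) leave uncertain how shared reads were assigned, and antisense and overlapping genes cannot be separated.

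Rounded expected counts went into edgeR 4.0.16 under R 4.3.3 (filterByExpr, TMM, glmQLFit and glmQLFTest without a block), adjusted by Benjamini-Hochberg over 12499 genes and called under 0.05. Biological variation between replicates was estimated at 10.5%. The chi-square per degree of freedom was 8.08 between the sham libraries and 26.7 between the TAC libraries, above the sampling noise of a library deposited in duplicate, so each was counted as its own sample. Scripts were tested on simulated data. Alternatives were total-count scaling, totals without mitochondrial genes, no filter, each library left out, a replicate block, DESeq2 1.42.0, and limma 3.58.1 on log2(FPKM + 0.1). All 63 members were placed by GENCODE M21 (mm10). Of 28 members with at least 100 counts in every library, the length implied by count and FPKM differed by over 5% between libraries for 12 and by over 20% for 2, Pde7a and Akap9.

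Values in every library were printed for called members, the 5 highest by mean FPKM in each family and a list of known cardiac members. Members and lists, including partner, marker, immediate early and clock genes, were chosen with earlier results of these data known.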

Additional observations from a re-analysis of the deposited data

How the results depend on the processing

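Of the single-member values under the alternatives, 388 kept their direction and their side of the threshold, 22 became called, 19 lost their call and 35 changed sign, all of the last for members called neither with all 4 libraries under TMM nor under the setting in question. The 9 members to which DESeq2 gave no adjusted p are left out of its share of these. The cause was not tested in any of these. The study describes its sequenced samples as pairs of sham and TAC mice, and the titles do not state which were paired. Deviations of same-numbered libraries correlated at −0.24. With 2 libraries per group this is 1 value, reversed to 0.24 for the crossed pairing. It cannot show whether the numbers mark pairs. A replicate block gave 4 called members, of which 2 were lower, and 1 Akap call, and with it Pde4a (edgeR adjusted p = 0.0534) and Akap5 (edgeR adjusted p = 0.0545) were not called. The crossed pairing, chosen after seeing the data, gave 12 called members, 9 lower, 3 of them Rgs, with 15 partner calls and 2131 calls over all genes, against 626 without a block and 566 with the same-number block.

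Called members numbered 12 (9 lower, 3 Rgs, 14 partners) without the low-count filter, where 1676 of 16015 genes were called, and the same at an adjusted p under 0.1, which 1817 of 12499 genes passed. With limma on FPKM 0 members and 0 partners were called, in each direction and family, beside 195 of all genes. Total-count scaling gave 1 higher member and 1 Rgs call, totals without mitochondrial genes 1 Rgs call, and DESeq2 7 partner calls. With a library left out, the lone sample of its group was assumed to vary like the other group. Called members then ran from 1 to 8, higher ones from 1 to 2, lower ones from 0 to 6, Pde from 1 to 5, Rgs from 0 to 2 (Rgs1, untested with all 4 libraries, was called without sham 2 through its reads in sham 1), Akap from 0 to 3 and partners from 2 to 10.

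The median log2 fold change under total counts, totals without mitochondrial genes and limma on FPKM was −0.42, −0.33 and −0.39 over members, −0.32, −0.23 and −0.26 for Pde, and −0.29, −0.20 and −0.34 for Akap. For Rgs it was −0.73 with total counts and −0.74 with limma. With a library left out it ran from −0.28 to −0.16 over members, from −0.18 to −0.01 for Pde, from −0.91 to −0.42 for Rgs and from −0.15 to −0.0894 for Akap.

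Signs changed in the same 3 settings for Akap1 (−0.121, −0.0331 and −0.124), Akap6 (−0.140, −0.0529 and −0.146), Akap7 (−0.177, −0.0908 and −0.293) and Akap10 (−0.193, −0.0991 and −0.197, and −0.0004 with the block and −0.0012 with the crossed one). Leaving out a library changed the sign of 15 members. Their ranges were −0.0818 to 0.0808 for Akap10, −0.0303 to 0.0504 for Akap7, −0.161 to 0.0455 for Akap8, −0.109 to 0.0393 for Akap9, −0.14 to 0.97 for Pde11a, −0.61 to 0.31 for Pde1b, −0.42 to 0.06 for Pde2a, −0.16 to 0.0186 for Pde3a, −0.22 to 0.0296 for Pde3b, −0.0624 to 0.65 for Pde4c, −1.06 to 0.001 for Pde5a, −0.91 to 0.10 for Pde8b, −0.27 to 0.0821 for Rgs10, −2.75 to 0.0682 for Rgs16 and −1.29 to 0.0131 for Rgs2. Depth limits the members with under 50 reads in every library, such as Pde9a, Rgs7 and Rgs19, whose standard errors were 0.39 to 0.48.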

Other observations

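Lists of immediate early and circadian clock genes were counted beside the members. Of 21 tested immediate early genes 10 were called, all lower in TAC, beside 5.01% of all genes (2.43% lower). Their summed level was 1266 CPM in sham 1, 768 CPM in sham 2, 392 CPM in TAC 1 and 354 CPM in TAC 2, so the sham libraries also differed from each other. Fos, a subunit of the AP-1 factor, was at 127.4 and 64.3 CPM in sham and at 14.1 and 16.2 CPM in TAC (log2 fold change −2.66 ± 0.30, edgeR adjusted p = 0.00641). Of 15 circadian clock genes 5 were called, 2 higher and 3 lower, beside the same 5.01%. Dbp, an output gene of the clock, was at 32.8 and 57.7 CPM in sham and at 4.81 and 10.8 CPM in TAC (−2.55 ± 0.38, edgeR adjusted p = 0.0161). The part of either list in the levels of the phosphodiesterase, RGS and AKAP genes was not tested. The 12 mural cell markers summed to 2062 and 2207 CPM in sham and to 2334 and 2446 CPM in TAC, but most of that sum was Des, or desmin, which is abundant in cardiomyocytes, at 1495 and 1595 CPM in sham and 1983 and 2005 CPM in TAC. The 5 tested red blood cell genes were not called (0 at an unadjusted p under 0.05 and 0 by DESeq2).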
